A study of Sus scrofa with 2 samples.

Results

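Potassium channels, GABA-A receptors and glutamate receptors set the electrical behaviour of neurons, and their genes were placed here on the chromatin loops and domains of pig spleen. The members were the protein-coding genes whose symbols begin with KCN, GABR, GRIA, GRIK, GRIN or GRM followed by a letter or digit, with GRINA left out. Of 20663 protein-coding genes in the RefSeq table of the assembly Sscrofa11.1, 137 were members. GRIN1, KCNT1 and KCNT2 had no chromosome in that table and could not be placed, which left 134 members among 19550 protein-coding genes on chromosomes 1 to 18, X and Y. The members were chosen as genes thought to be largely silent in spleen, but expression was not measured in the files used here and the label could not be checked against it.

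The chromatin map was made by in situ Hi-C, in which pieces of chromatin near each other in the nucleus are joined and read as pairs, on spleen of Sus scrofa in 2 biological replicates of 1 group, with no treatment, other tissue or other condition. The labels give no age, sex or breed for the animals. The files held 1927 topologically associating domains (TADs, stretches of chromosome whose contacts stay mostly within them) and 3410 loops (pairs of 25 kb anchors with more contacts than the pixels around them), listed once for the series. No value per replicate existed, so no spread between replicates could be given, and the intervals below are counting intervals over genes. Positions are those of the deposited tables with 1 added to each anchor and TAD start, and those tables name no genome build. Anchors lay on a 25 kb grid and TAD edges on a 10 kb grid, so smaller distances are finer than the map resolves.

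Potassium channels carry potassium ions across the cell membrane and bring it back towards rest. The pore-forming subunits fall into voltage-gated, calcium-activated, inward rectifier and K2P (leak) groups, and accessory subunits alter how the pores open. GABA-A receptors are chloride channels of fast inhibition, and their subunit genes lie in clusters. AMPA, kainate and NMDA receptors are glutamate-gated channels, and metabotropic glutamate receptors act through G proteins. Some potassium channels also work outside the nervous system, among them KCNA3 and KCNN4, which hold the membrane potential of T cells during calcium entry.

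The members were long genes in sparse surroundings. They had a median length of 49.3 kb (quartiles 13.5 and 240 kb), against 20.7 kb for all protein-coding genes. The shortest was KCNE2, an accessory subunit of 1.23 kb, and the longest was KCNIP4, which encodes a calcium-binding partner of voltage-gated channels, at 1134.4 kb. A member had a median of 7 other protein-coding genes within 500 kb of its midpoint, against 14 for all genes. The other genes were therefore weighted so that their spread over 25 strata of length and local gene density was that of the members. After weighting, the others had a median length of 49.7 kb and a median of 8 neighbours. Their upper quartile of length, 130 kb, stayed below that of the members, and with deciles in place of quintiles it was 181 kb. The longest genes were thus not fully matched.

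**Figure D1:**
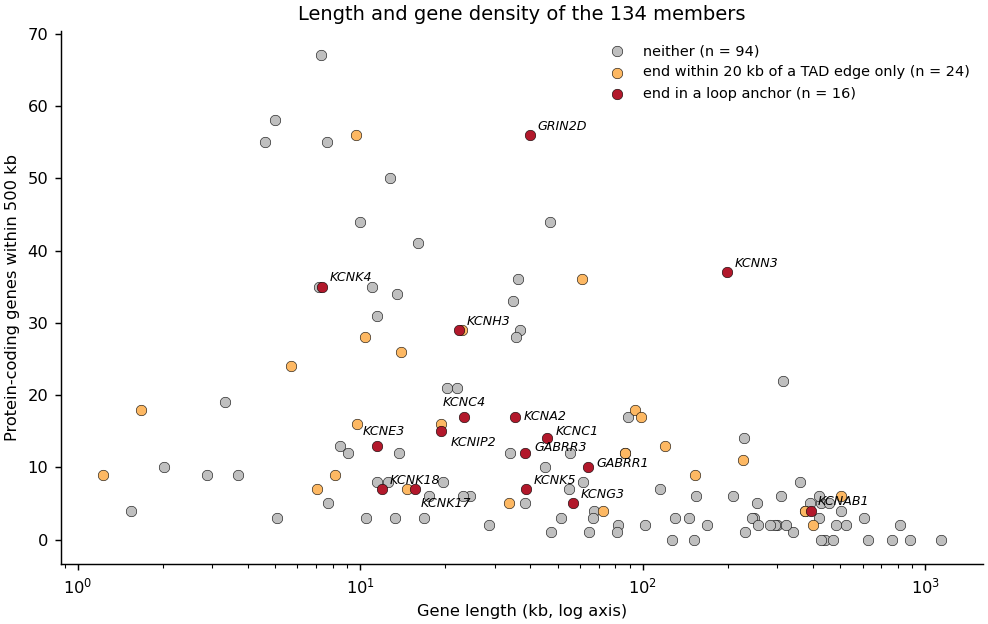
Each point is 1 of the 134 members, placed by gene length (kb, log axis) and by the number of protein-coding genes within 500 kb of its midpoint. Red points are the 16 members with an end in a loop anchor, orange points the 24 with an end within 20 kb of a TAD edge only and grey points the 94 with neither, and most of the genes of 100 kb or more lie at the bottom right, with fewer than 10 neighbours.

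Few members met a loop anchor. Either annotated end of the gene lay in an anchor for 16 of 134 members (11.9%, 95% Wilson interval 7.48 to 18.5%), against 17.3% of all protein-coding genes and 16.6% of the other genes weighted on length and density. On the weighted share 22.3 members would have been at an anchor. The interval included both shares, so the ends of the members were not distinguishable from the background at this number of genes. Over whole gene spans the gap was wider. A span touched an anchor in 17 of 134 members (12.7%, 8.07 to 19.4%), against 20.7% of all genes and 22.8% of the weighted genes, or 22.1% with deciles. Only 1 member was therefore gained by counting the gene body, although members are long. These intervals treat genes as independent, whereas neighbouring members can share an anchor.

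The gap depended on the loops counted. In the 1701 placed loops with the lowest FDR, 12 members had an end in an anchor (8.96%), and the weighted share of the other genes was 8.87%. Over gene spans the shares with these loops were 9.7% and 12.7%. GABRR1, GRIN2D, KCNE3 and KCNG3 were the 4 members whose loops were not among these. Leaving out each chromosome in turn kept the share of members with an end in an anchor between 10.7% (without chromosome 4) and 12.7% (without chromosome 16).

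**Figure D2:**
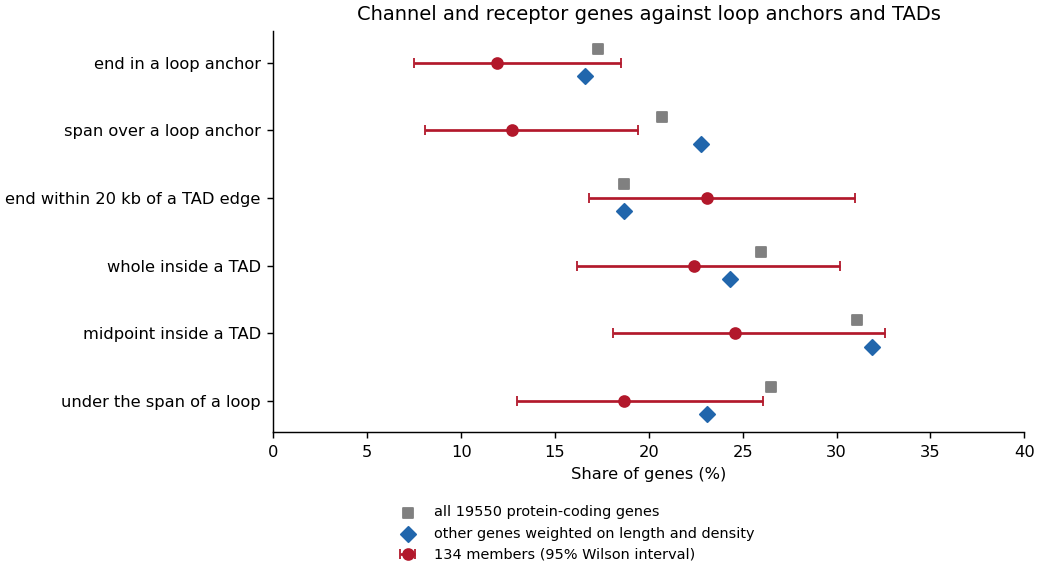
Share of genes (%, linear axis) meeting each of 6 placements. Red circles with bars are the 134 members with 95% Wilson intervals, grey squares all 19550 protein-coding genes, and blue diamonds the other genes weighted to the members on length and local gene density. The red bar excludes both backgrounds only for gene spans over an anchor (12.7% against 20.7% and 22.8%), and the red circle lies to the right of both backgrounds only at TAD edges.

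Distances gave the same order without a cut-off. The nearer end of a member lay a median of 222 kb from the nearest anchor (quartiles 44.4 and 673 kb, 95% order-statistic interval of the median 157 to 332 kb). For all genes the median was 94.9 kb, and for the weighted genes it was 112 kb, or 124 kb with deciles. Within 100 kb of an anchor lay 48 members (35.8%), against 50.9% of all genes and 48.4% of the weighted genes. Beyond 1000 kb lay 22 members (16.4%), against 10.2% and 13.5%. With the 1701 loops of lowest FDR the median of the members was 435 kb (290 to 583 kb) and that of the weighted genes 354 kb, inside that interval. From the farther end of each gene, a measure that also grows with gene length, the median of the members was 436 kb (266 to 509 kb). For that end the weighted genes had 189 kb and all genes 136 kb, both outside the interval. The members farthest from any anchor were GRIA3, an AMPA receptor gene on chromosome X, at 5120 kb, then KCNH7, a voltage-gated channel gene, at 4050 kb, and KCNIP4 at 3450 kb. Chromosome X had 37 loops in all, and none of its 6 members had an end in an anchor. The share of all genes of that chromosome at anchors is not given here, so this count does not set its members apart. The 5 longest members, KCNIP4, GRM7, GRM8, KCNMA1 and GRIK2, lay 1020 to 3450 kb from an anchor and outside all TADs.

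**Figure D3:**
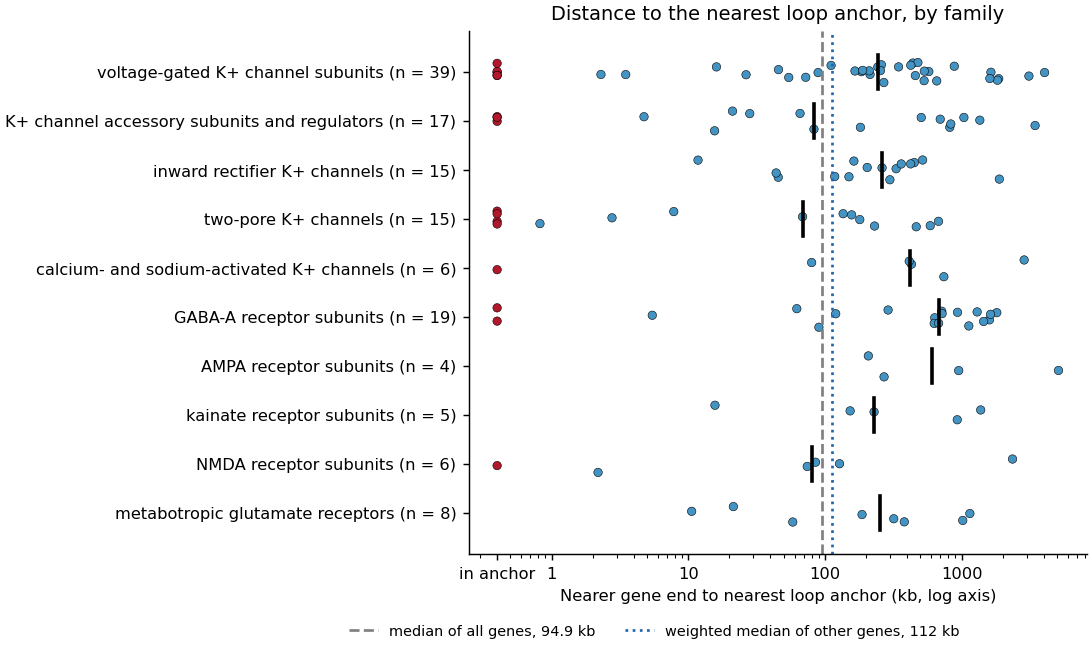
Distance from the nearer end of each member to the nearest loop anchor (kb, log axis), by family. Red points at the left, drawn at a fixed place, have an end inside an anchor, blue points do not, black bars are family medians, and the dashed and dotted lines mark 94.9 kb (all genes) and 112 kb (weighted genes). The K2P, accessory and NMDA families have medians to the left of both lines, at 68.7, 83.2 and 79.9 kb, and the GABA-A family has the rightmost, at 679 kb.

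By role, potassium channel genes had an end in an anchor in 13 of 92 cases (14.1%, Wilson interval 8.45 to 22.7%), against 17.2% of other genes weighted to them. Receptor genes did in 3 of 42 (7.14%, 2.46 to 19.0%), against 15.4% of other genes weighted to them. Each interval included its own background, and the difference between channels and receptors was not tested. The families within these roles are smaller, and their counts below stand beside 17.3% of all protein-coding genes at anchors.

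Voltage-gated subunits were at anchors in 5 of 39 cases, with a median of 244 kb to an anchor. KCNA2, a subunit of Shaker-type channels that sets spike threshold in axons, had 3 loops, more than any other member. Its anchor, on chromosome 4 from 109525001 to 109550000, was joined to 3 consecutive anchors between 109375001 and 109450000, at spans of 150, 125 and 100 kb. The loops had 141, 141 and 185 observed contacts, against 68.2, 75.2 and 100 expected from the surrounding donut of pixels, and the largest FDR of each was 0.00473, 0.00495 and 6.15e-05. The 3 pixels touch each other and can be a single contact seen in neighbouring bins.

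The same loops enclosed KCNA3, the Shaker-type channel of T cells, which has no end in an anchor itself. KCNA3 lay whole in a TAD of 160 kb, from 109390001 to 109550000, and was the single protein-coding gene whole inside it. It was 26.5 kb from the nearest anchor and 51.5 kb from the nearest edge, with 3 loops over it. Of these loops, 2 joined anchors within 20 kb of both edges of this TAD. The right-hand edge, at 109550000, fell under KCNA2, so the KCNA2 gene crossed the border of the domain that held KCNA3.

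Further along, KCNA10 lay in the gap between this TAD and the next, 2.3 kb from an anchor and from a TAD edge at 109650000. KCNC4, a fast-activating channel subunit, lay whole in the next TAD, from 109650001 to 109950000, which held 6 protein-coding genes whole. The anchor with its end, from 109900001 to 109925000, also held an end of SLC6A17, a transporter of synaptic vesicles. It was joined to the anchors of CYM (71 contacts, 29.7 expected) and PROK1 (93 contacts, 32.3 expected, largest FDR 1.03e-08). These 4 channel genes, within 413.3 kb, formed the run of members with the most loops, as 6 loops had an anchor over it.

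**Figure D4:**
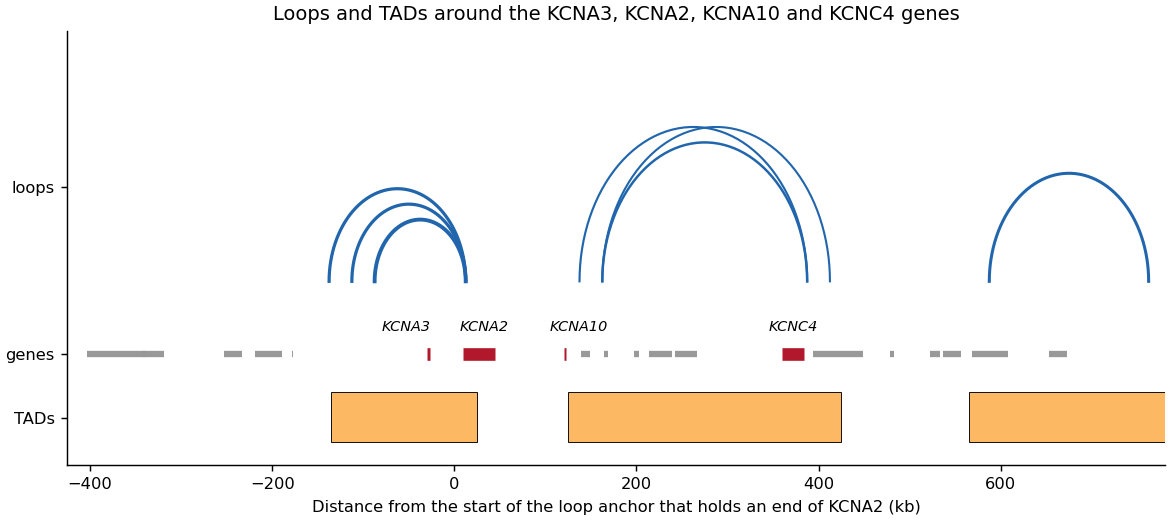
Loops (blue arcs between anchor midpoints, thicker with more observed contacts), protein-coding genes (members in red with names, others in grey) and TADs (orange) around KCNA2, by distance (kb) from the start of its anchor. The 3 arcs at the left end at KCNA2 and pass over KCNA3, and KCNC4 lies under the arcs of the next TAD.

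The other voltage-gated genes at anchors were KCNH3, KCNC1 and KCNG3. KCNH3, an ether-a-go-go-like channel of the forebrain, had 2 loops of 175 and 150 kb on chromosome 5, with 97 and 159 contacts against 50.5 and 82.3 expected. Its anchor also held an end of SPATS2, and an anchor at the far side held another end of SPATS2. KCNC1, of fast-spiking neurons, had 1 loop of 250 kb with 70 contacts against 30 expected, in an anchor shared with MYOD1, the muscle transcription factor. KCNG3, a subunit that forms no pore alone, had 1 loop of 225 kb to an anchor with an end of MTA3, with 77 contacts against 41.9 expected and a largest FDR of 0.0531. KCND3 missed an anchor by 3.49 kb and KCNA7 by 16.1 kb. Far from any anchor, besides KCNH7, were KCNV2, KCNA4, KCNQ1 and KCNS2, at 1870, 1830, 1640 and 1610 kb.

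Accessory subunits and regulators were at anchors in 3 of 17 cases, each with 2 loops. All 3 had both ends in anchors, and both ends of KCNE3 lay in the same anchor. Of the 16 members at anchors, 5 had both ends in anchors (31.2%), against 34.1% of all genes at anchors. KCNAB1, a beta subunit of Shaker-type channels, is 393.3 kb long. The loop at its left end spanned 350 kb (78 contacts, 28.9 expected) and reached an anchor from 96325001 to 96350000 that held an end of SSR3. The loop at its right end, in an anchor shared with the other end of SSR3, spanned 100 kb to TIPARP (133 contacts, 72 expected). KCNIP2, a calcium-binding partner of voltage-gated channels in heart and brain, had loops of 200 and 150 kb on chromosome 14, with 135 and 176 contacts against 70.8 and 96.3 expected. KCNE3, a single-pass subunit found in epithelia, had loops of 100 and 250 kb on chromosome 9 to POLD3 and to CHRDL2 and RNF169. They had 107 and 69 contacts against 71.7 and 33.9 expected, and the first had the highest largest FDR of any member loop (0.0925). KCNE2 and KCNE1, neighbours on chromosome 13, were 4.75 and 15.6 kb from an anchor.

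K2P channels, which carry the resting leak of potassium, had the highest share of any family of over 6 genes. Against 17.3% of all protein-coding genes, 4 of 15 were at anchors (26.7%). No interval was computed for this family, and KCNK5 and KCNK17 were counted at the 2 anchors of 1 loop. Its rank among the families was not tested. KCNK5 and KCNK17 were joined to each other on chromosome 7. That loop, from the anchor at 34600001 to 34625000 to the anchor at 34700001 to 34725000, spanned 100 kb with 119 contacts against 65.7 expected (largest FDR 0.00326). It was the single listed loop between ends of different members, and neither anchor held an end of any other protein-coding gene. KCNK17 had another loop of 125 kb in the adjoining pixel (113 contacts, 62.8 expected). KCNK16, the third K2P gene of this cluster, was 2.77 kb from the anchor of KCNK17. All 3 lay outside every TAD. KCNK4, a mechanosensitive channel, had 1 loop of 100 kb (128 contacts, 66.4 expected) and shared its anchor with ends of PRDX5, TRMT112, ESRRA and CATSPERZ. KCNK18, of sensory neurons, had 1 loop of 325 kb (70 contacts, 27.8 expected) and its anchors held no other protein-coding gene end. KCNK6 missed an anchor by 0.823 kb, the closest of all members outside one, and KCNK7 by 7.84 kb. Both distances are below the 25 kb width of an anchor.

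In the family of KCNN1 to KCNN4, KCNMA1 and KCNU1, 1 of 6 genes was at an anchor. The sodium-activated channel genes, KCNT1 and KCNT2, could not be placed. KCNN3, a small-conductance channel of dopamine neurons, had its 2 ends joined by a loop of 200 kb on chromosome 4, with 146 contacts against 85.7 expected (largest FDR 0.00111). The gene is 199.2 kb long, so the loop spanned its body. The left anchor also held an end of PMVK, and a TAD edge at 95110000 lay 2.85 kb from the gene's end. KCNN4, the calcium-activated channel of lymphocytes and red cells, was 80 kb from an anchor and 40 kb from a TAD edge, outside all TADs. KCNN1, KCNN2, KCNU1 and KCNMA1 were 414 to 2870 kb from an anchor.

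Against 17.3% of all protein-coding genes, none of 15 inward rectifier genes had an end in an anchor. Their median distance was 262 kb, from 11.8 kb for KCNJ14 to 1890 kb for KCNJ3, a G protein-gated subunit of heart and brain. KCNJ2, the classical inward rectifier, also present in macrophages, lay with KCNJ16 in a TAD of 880 kb on chromosome 12, from 10000001 to 10880000, and was 519 kb from an anchor. KCNJ8, a pore subunit of ATP-sensitive channels, lay in a TAD of 270 kb on chromosome 5, from 51490001 to 51760000, with 2 loops over it and 2 loops joining both edges of the TAD.

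**Figure D5:**
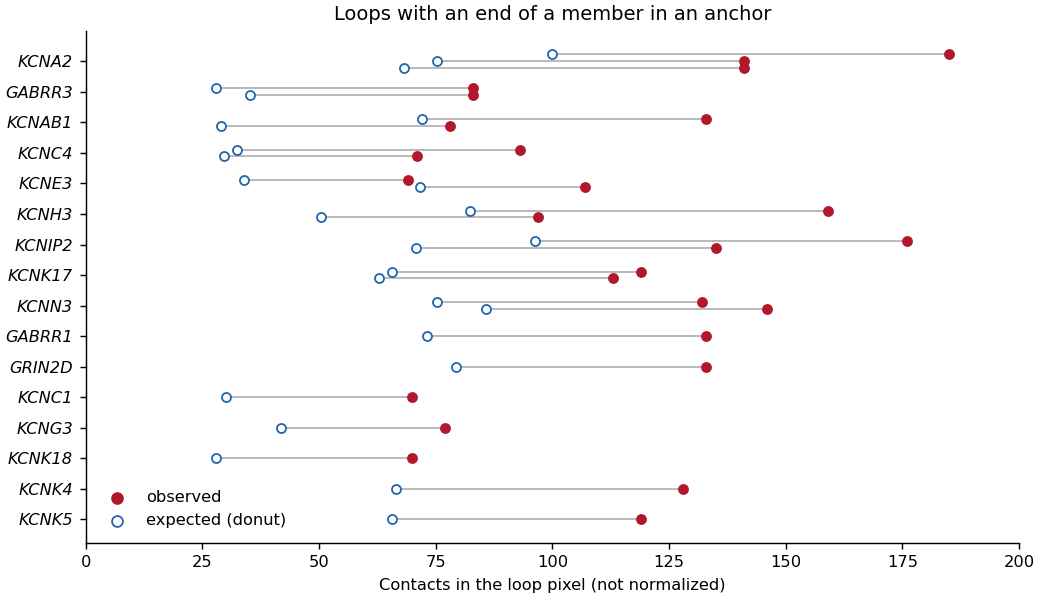
Observed contacts (filled red) and contacts expected from the surrounding donut (open blue) for each loop with an end of a named member in an anchor, on a linear axis of unnormalized contacts. Each line is 1 loop, the loop between KCNK5 and KCNK17 is drawn for both genes, and observed contacts run from 69 to 185.

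The 25 loops at members were close to all autosomal loops in span, contacts and ratio, but had a lower median of the largest FDR, 0.00569 against 0.0129. Their spans ran from 100 to 350 kb with a median of 175 kb, the same median as over all autosomal loops, whose spans reached 9120 kb. Their median was 119 contacts, against 109 for the autosomes, and the ratio of observed to expected had a median of 1.91 against 2.0, with a range of 1.49 to 2.98. The 25 pixels formed 17 groups of touching pixels. Of the 16 members at anchors, 9 shared an anchor with an end of another protein-coding gene (56.2%), against 59.0% of all genes at anchors.

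GABA-A receptor genes were at anchors in 2 of 19 cases (10.5%, Wilson interval 2.94 to 31.4%). The interval included the 16.1% of other genes weighted to them. Both genes at anchors were rho subunits, best known from the retina. GABRR3 on chromosome 13 had 2 loops of 200 and 225 kb to the anchors of CRYBG3 and ARL6, each with 83 contacts, against 35.2 and 27.9 expected. It lay in a TAD of 220 kb, from 162270001 to 162490000, and both loops joined the edges of that TAD. GABRR1 on chromosome 1 had 1 loop of 150 kb to an anchor with an end of RNGTT (133 contacts, 73.2 expected, largest FDR 0.0392) and shared a TAD of 320 kb with GABRR2. A further TAD edge, at 57260000, fell under GABRR1. The rho genes were the 3 GABA-A genes inside TADs.

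Most of the clustered subunits of brain GABA-A receptors lay far from loops. On chromosome 16, GABRA6 and GABRB2 lay outside TADs, at 1300 and 934 kb from an anchor. On chromosome 8, GABRG1, GABRA2, GABRA4 and GABRB1 spread over 1156.9 kb, at 1810, 1600, 1130 and 720 kb, and a TAD edge at 37310000 fell under GABRB1. On chromosome 1, GABRG3 and GABRA5 lay outside all TADs. GABRG3 had 1 end 5.46 kb from an anchor, and GABRA5 was 636 kb away. On chromosome X, GABRE, GABRA3 and GABRQ were 679, 290 and 120 kb from an anchor, outside all TADs. No listed loop had an anchor over the clusters of chromosomes 8 and X, and no loop spanned either. GABRD, of extrasynaptic receptors, lay 90.4 kb from an anchor among 44 neighbours, and GABRP lay 631 kb away.

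Of 23 glutamate receptor genes, GRIN2D alone had an end in an anchor (4.35%, Wilson interval 0.772 to 21.0%). Of other genes weighted to them 14.8% did, a share inside that interval. GRIN2D, an NMDA receptor subunit of early development, had 1 loop of 125 kb on chromosome 6 to an anchor with ends of SULT2B1, FAM83E, SPACA4 and RPL18 (133 contacts, 79.4 expected, largest FDR 0.0392), in surroundings of 56 genes. GRIN3B missed an anchor by 2.19 kb. GRIN2A, GRIN2C and GRIN2B were 74.3, 85.4 and 128 kb away and GRIN3A 2360 kb. The 4 AMPA receptor genes were 208 kb (GRIA1), 271 kb (GRIA4), 953 kb (GRIA2) and 5120 kb (GRIA3) away. The kainate receptor genes ran from 15.7 kb for GRIK5 to 1380 kb for GRIK2, and the metabotropic genes from 10.6 kb for GRM5 to 1150 kb for GRM7. GRM8, the second longest of these at 811.9 kb, was 1020 kb from an anchor.

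At TAD edges the order of members and background was reversed. An end lay within 20 kb of an edge in 31 of 134 members (23.1%, Wilson interval 16.8 to 31.0%), against 18.7% of all genes and 18.7% of the weighted genes. The interval included the background, and the members were not distinguishable from it. Leaving out each chromosome in turn kept the share between 21.3 and 24.2%. Of the 31, 7 were also at a loop anchor, namely GABRR3, KCNA2, KCNG3, KCNH3, KCNIP2, KCNK18 and KCNN3. That is 22.6% (11.4 to 39.8%), against 33.8% of all genes at edges and 35.5% of the weighted ones. The interval included both of these shares.

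The members closest to an edge were KCNQ5, a channel of the M-current family, at 0.295 kb, KCNG4 at 0.548 kb and KCNIP3 at 0.721 kb. With edges on a 10 kb grid, the order of genes at such distances carries no meaning. KCNE1, GRM4, KCND3, GRIN3B, KCNA10, GRM2, KCNMB1, KCNJ1, GRIN2A and KCNE2 were among those that followed, at 1.28 to 9.75 kb. KCNMB3, KCNJ13, KCNH1, GRIK5, KCNJ4, KCNK15, KCNMB4, KCNJ9, GRIN3A and KCNK16 were 10.3 to 15.2 kb from an edge. Edge genes came from every family but the AMPA receptors. They were 9 of 39 voltage-gated subunits, 7 of 17 accessory subunits, 4 of 15 inward rectifiers and 3 of 15 K2P channels. In the family of KCNN genes, KCNMA1 and KCNU1 it was 1 of 6, and in the GABA-A subunits 1 of 19. Of the glutamate receptor genes they were 1 of 5 kainate, 3 of 6 NMDA and 2 of 8 metabotropic receptors. In the splits that follow, the other genes were not weighted on length or density. The split at the median density of all genes was a choice made after the values were seen. Of the 39 members with over 14 neighbours, 15 were at an edge (38.5%, 24.9 to 54.1%), against 16.9% of other genes in such places. Of the 95 in sparser places 16 were (16.8%, 10.6 to 25.6%), against 20.3%. Split at the median length of all genes, 20.7 kb, 13 of the 45 shorter members were at an edge (28.9%, 17.7 to 43.4%), against 15.5% of other genes of such length. Of the 89 longer members 18 were (20.2%, 13.2 to 29.7%), against 21.8%. For anchors the split by density gave 7 of 39 (17.9%, 8.98 to 32.7%) against 17.0% of other genes, and 9 of 95 (9.47%, 5.06 to 17.0%) against 17.6%. The split by length gave 5 of 45 shorter members at anchors (11.1%, 4.84 to 23.5%) against 15.8%, and 11 of 89 longer ones (12.4%, 7.04 to 20.8%) against 18.9%.

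Like genes in general, most members lay outside domains. Of the 134, 90 lay outside all TADs (67.2%), against 64.6% of all genes and 62.0% of the weighted genes. Another 14 crossed an edge (10.4%), above the 9.45% of all genes and below the 13.7% of the weighted genes, and 30 lay whole inside a TAD (22.4%, 16.2 to 30.2%). Of all genes 26.0% lay whole inside a TAD, and of the weighted genes 24.3%. By gene midpoints, 33 members were inside (24.6%, 18.1 to 32.6%), against 31.1% of all genes and 31.9% of the weighted genes.

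The 30 members inside TADs occupied 26 TADs with a median length of 310 kb, from 160 to 1510 kb. For KCNQ5, GRIN2A, GRIK3, KCNH1, KCNK13 and KCNA3, the member was the single protein-coding gene whole inside its TAD. Those TADs were 700, 800, 820, 620, 220 and 160 kb long. Such genes made up 6 of the 30 members in TADs, against 11.4% of all genes in TADs and 15.2% of the weighted ones. KCNQ5 (504.4 kb) and its 700 kb TAD on chromosome 1, from 52240001 to 52940000, had ends 0.295 kb apart, less than the 10 kb grid of the edges. GRIN2A, an NMDA subunit gene of 400 kb, lay 9.33 kb from an edge of its TAD on chromosome 3, from 32740001 to 33540000. KCNH1 (375.5 kb) lay 10.6 kb from an edge of its TAD on chromosome 9, from 131950001 to 132570000.

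Loops that joined both edges of a member's TAD, with both anchors within 20 kb of the edges, were present for 3 of the 26 TADs, those of GABRR3, KCNA3 and KCNJ8 (11.5%, 4.0 to 29.0%). Of the 1588 TADs that held any whole protein-coding gene, 29.7% had such a loop. Their median length was 260 kb against 310 kb for the members' TADs, and length was not held alike in this comparison, which was added after the values were seen. Under the span of a loop lay 25 members (18.7%, 13.0 to 26.1%), against 26.5% of all genes and 23.1% of the weighted genes, so the interval excluded the share of all genes and included the weighted one. Of the 25, 17 had no end in an anchor. KCNAB3 lay under 4 loops, KCNA3 and KCNC4 under 3.

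Of 17 runs of members with midpoints less than 500 kb apart, holding 46 genes, 2 lay in a single TAD. These were the run of GABRR1 and GABRR2 and the run of KCNJ2 and KCNJ16. A TAD edge fell inside 8 runs, and no loop had an anchor over 12 of them. Runs of other genes of like length were not counted, so these numbers do not set the members apart. On chromosome 5, KCNA5 and KCNA1 lay in a TAD of 970 kb that ended at 65600000, and KCNA6 lay past that edge by 25.6 kb. On chromosome 6, GRIN2D and KCNJ14 shared a TAD of 250 kb from 53730001 to 53980000, and KCNA7 lay in another from 54120001 to 54370000. GABRP, KCNIP1 and KCNMB1 on chromosome 16 were split by an edge at 53610000, which fell under KCNIP1. KCNMB2 and KCNMB3 on chromosome 13 had 2 edges between their outer ends. The rest were KCNC1 with KCNJ11, KCNJ9 with KCNJ10, KCNJ1 with KCNJ5 and KCNK15 with KCNS1, all outside TADs.

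Of the 6 members listed for a known role in leukocytes, KCNE3 was at an anchor, and KCNA3, KCNJ2 and KCNK13 lay whole in TADs. KCNAB2, a beta subunit of Shaker-type channels that is also on this list, was 83.2 kb from an anchor. Other genes of the same signalling were placed for comparison. The share of all protein-coding genes at anchors was 17.3%. Of 38 placed synapse partners (scaffolds and auxiliary proteins) 4 were at anchors (10.5%), CACNG2, DLG3, DLGAP2 and GRIP2, with a median distance of 249 kb. Of 18 genes of transmitter synthesis and transport 2 were at anchors (11.1%), among them GLUL, the glutamine synthetase gene. In 7 other channel and receptor families 11 of 65 genes were at anchors (16.9%), near the share of all genes, with a median distance of 142 kb. They included 5 of 24 voltage-gated calcium channel genes, all of auxiliary subunits (CACNB1, CACNB2, CACNG2, CACNG6 and CACNG7). Also at anchors were 4 of 15 nicotinic receptor genes (CHRNA1, CHRNA9, CHRNB1 and CHRNB3) and 1 of 13 voltage-gated sodium channel genes (SCN2B). Of the serotonin type 3 receptor genes 1 of 2 was at an anchor. None was among the 4 HCN channel, 5 glycine receptor and 2 delta glutamate receptor genes. The 65 genes had a median length of 52.9 kb, near that of the members, and a median of 13 neighbours against 7. CACNG2 was counted in both the first and the last of these sets.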

How the data were processed

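Per the labels, formaldehyde-fixed spleen chromatin was cut with DpnII, labelled with biotin, ligated and sequenced as paired ends. The submitters' processing notes name HiC-Pro 3.1.0, and per the file headers juicer_tools 1.9.9 wrote the loops. The sources used here do not give the TAD caller, the build or any pooling of replicates. The deposited loop table gives observed contacts as raw counts, the expected signal per pixel in the same unit, and 4 FDR (q-value) columns per loop, of which the largest was used. Loop contacts ran from 10 to 1004, and the sequencing depth is unknown.

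Genes came from the RefSeq table of Sscrofa11.1, which has no strand, so both gene ends were used. On the autosomes the last listed feature ended at most 2.995 Mb before the last annotated gene. Members, lists and comparisons were chosen with earlier results of these data known, and no p-value was computed. Shares have 95% Wilson intervals. Other genes were weighted over quintiles of length by quintiles of gene density (500 kb). Named genes were members at an anchor or edge (up to 40), the 5 longest, the 3 farthest from an anchor, runs and leukocyte genes, and others stand as examples; some genes are not reported by name here. The placement and weighting were tested on simulated data. The simulated shares depended on the strata alone, so the test cannot show how well genes were matched within strata. Python 3.11.15, pandas 2.3.3 and numpy 2.4.6 were used. No sequence was used here.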

Additional observations from a re-analysis of the deposited data

How the results depend on the processing

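Of 54 values recomputed under other settings, 32 stayed inside the interval of the reported value. Other genes at anchors, weighted to the members (16.6%), came to 23.7% with anchors widened by 10 kb (members 17.9%), 22.8% by gene spans (12.7%), 22.1% by spans with deciles, 12.7% by spans with the 1701 loops of lowest FDR, 8.87% with those loops by ends (8.96%), 14.2% with 1 pixel per group (10.4%), 15.5% with deciles and 18.0% on length alone. Members were below them in each of these except the 1701 loops by ends. At TAD edges, members and weighted genes were at 13.4 and 10.9% with a 10 kb window and 33.6 and 30.1% with 40 kb, and tertiles gave 19.5%. Weighted genes inside TADs came to 23.4% with deciles and 31.9% by midpoints. Under loops, members came to 11.9% and weighted genes to 13.3% with the 1701 loops. Weighted genes under loops came to 19.1% with loops of at most 1 Mb, 24.0% with tertiles and 22.1% with deciles. The median distance of members to an anchor was 435 kb with the 1701 loops (2810 anchors against 5285) and 436 kb from the farther end. Transcription starts were not run, since the gene table has no strand. Leaving out each chromosome in turn gave 10.7 to 12.7% at anchors and 21.3 to 24.2% at edges. No paired analysis was possible because both replicates belong to 1 group and the files hold no value per replicate. Strata of length or density alone, gene spans with deciles or with the 1701 loops, edges without those shared by adjoining TADs and the left-out chromosomes were added after seeing the data. The precision of each loop rests on its contacts alone.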
